A study of Mus musculus with 5 samples.

Results

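The killer lectin-like receptors of 10 genes (Klrb1c, Klrk1, Klrd1, Klrc1, Klre1, Klri2, Klrg1, Klra4, Klra7 and Klra8) were followed through 5 RNA-seq libraries of mouse bone marrow cells. Every transcript row of the deposited table that carries one of these gene symbols was taken, which gave 14 rows of 10 genes out of 26531 rows of 22098 symbols. The series asks which blood lineages depend on Ikaros, the zinc finger protein encoded by Ikzf1 that controls transcription in developing lymphoid cells. All libraries came from C57BL/6 mice aged 6 to 7 weeks, from bone marrow cells sorted as Hardy fraction A, the earliest step of the B lineage in that scheme, with no depletion of other lineages. The labels also name the sorted cells as proB cells. The groups were wild type (wt, 2 libraries), mice homozygous for a mutation of Ikaros zinc finger 1 (Ikaros_ZnF1-/-, here dF1, 2 libraries) and mice homozygous for a mutation of zinc finger 4 (Ikaros_ZnF4-/-, here dF4, 1 library). Per the series' design text, the dF1 libraries are biological replicates and dF4 was covered thinly. No source states that the wt libraries are of different mice, so a p-value here measures the spread between libraries, which in wt may be technical.

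Killer lectin-like receptors are membrane proteins with a C-type lectin-like domain that natural killer (NK) cells, and some T cells, use to read other cells. Inhibitory members carry a signalling motif in their cytoplasmic tail that recruits phosphatases such as Ptpn6, and many of them bind MHC class I or related molecules. Activating members have short tails and signal through partner proteins, chiefly Tyrobp (DAP12), Hcst (DAP10) and Fcer1g. The genes lie together in the NK gene complex, and the Klra genes, which encode the Ly49 receptors, form a cluster of close copies whose number differs between mouse strains.

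In the RefSeq annotation of GRCm38.p6, all 10 genes lie on chromosome 6, among 31 Klr genes. Counted along the chromosome, Klrg1 was the 2nd of these, Klrb1c the 5th, Klre1, Klrd1 and Klrk1 the 9th to 11th, Klrc1 the 14th, Klri2 the 16th, and Klra4, Klra8 and Klra7 the 21st, 23rd and 26th. Promoter sequences were found for 7 of the 10 genes, in 10 windows of 300 bases that run from 250 before to 50 after an annotated start. The 250 bases before the start are shown for the 3 Klra genes, whose rows all had lower values in dF1, and for Klrk1 and Klrb1c, whose main rows did not. They are from RefSeq, read 5′ to 3′ on the gene's strand, and capitals mark matches on either strand to GGGAA, a core letter string of Ikaros binding sites, or to TGTGGT, that of Runx factors.
Klra4, chr6:130067272-130067521, minus strand: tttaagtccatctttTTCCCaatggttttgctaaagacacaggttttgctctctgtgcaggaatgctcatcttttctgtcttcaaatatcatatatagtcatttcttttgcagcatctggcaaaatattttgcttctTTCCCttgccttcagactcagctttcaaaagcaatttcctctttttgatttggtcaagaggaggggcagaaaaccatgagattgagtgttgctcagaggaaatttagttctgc
Klra8, chr6:130129899-130130148, minus strand: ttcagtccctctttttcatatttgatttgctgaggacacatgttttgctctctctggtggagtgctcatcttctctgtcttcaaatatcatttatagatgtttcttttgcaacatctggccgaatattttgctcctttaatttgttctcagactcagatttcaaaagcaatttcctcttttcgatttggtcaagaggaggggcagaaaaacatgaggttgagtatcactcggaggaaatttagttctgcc
Klra7, chr6:130233323-130233572, minus strand: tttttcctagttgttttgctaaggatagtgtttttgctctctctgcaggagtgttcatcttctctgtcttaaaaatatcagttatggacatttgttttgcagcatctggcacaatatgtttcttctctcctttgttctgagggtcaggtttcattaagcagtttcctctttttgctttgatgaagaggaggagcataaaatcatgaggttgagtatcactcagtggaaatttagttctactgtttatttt
Klrk1, chr6:129623865-129624114, minus strand: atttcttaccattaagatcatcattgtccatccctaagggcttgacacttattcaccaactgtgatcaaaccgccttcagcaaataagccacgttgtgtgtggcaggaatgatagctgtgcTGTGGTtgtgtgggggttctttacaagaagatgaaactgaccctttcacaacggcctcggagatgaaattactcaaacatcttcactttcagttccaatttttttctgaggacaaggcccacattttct
Klrb1c, chr6:128788642-128788891, minus strand: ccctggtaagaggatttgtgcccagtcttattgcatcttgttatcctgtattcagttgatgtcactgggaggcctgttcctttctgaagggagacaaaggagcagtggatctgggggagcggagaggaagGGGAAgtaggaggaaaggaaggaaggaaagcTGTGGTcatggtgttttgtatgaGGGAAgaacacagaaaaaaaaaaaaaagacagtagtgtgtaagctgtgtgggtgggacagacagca

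The aligned windows of Klra4 and Klra8 were identical at 259 of 299 positions (86.6%). Klra7 matched Klra4 at 230 of 288 positions (79.9%) and Klra8 at 231 of 289 (79.9%). GGGAA was found in 2 of the 5 Klra windows and in 4 of the 5 windows of Klrb1c, Klrk1, Klrc1 and Klre1, against 62.7% of all 32851 promoter windows. TGTGGT was found in 0 of the 5 Klra windows and in 4 of the 5 others, against 16.8% of all windows. Windows of one gene are not separate promoters, since those of Klra8 overlap each other and so do those of Klre1. By gene, GGGAA was in a window of Klra4 and Klra7, and of Klrb1c, Klrc1 and Klre1. The Klra7 match was in its other window, which is not shown above. TGTGGT was in a window of Klrb1c, Klrk1, Klrc1 and Klre1. The search used the whole 300 bases, and no match of one string overlaps a match of the other. These matches describe letters and are not measured binding sites.

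The close copies also bear on the values themselves. Of all 36-base stretches in one reference transcript of each gene (GENCODE, GRCm38), none of Klrk1, Klrd1, Klre1 or Klrg1 occurs in a transcript of another gene. The share was 6.11% for Klri2, 12.3% for Klra4, 19.6% for Klrb1c, 23.7% for Klra7, 47.8% for Klra8 and 50.5% for Klrc1, which shares most with Klrc2. The search covered only transcripts of that annotation. Of the further Klra symbols in the table, 9 are not listed under that name on chromosome 6 of the reference. Sharing with the rows of these symbols was not measured, so the Klra shares may be too low, that of Klra4 included. How reads were divided among copies is not given in the sources used here, so by this measure alone the levels of Klrc1, Klra8 and Klra7 are the least certain. How reads were divided between transcripts of one gene is not given either, so a gene's second row is not taken as an independent measurement. The 2 Klrk1 rows, of 3166 and 3270 bases, were at 101 and 0.9 RPKM in dF1 replicate 1. These rows therefore did not hold the same reads counted in full.

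Summed RPKM (a read density corrected for transcript length and library size) was 286080 to 307910 in the wt and dF1 libraries and 345446 in dF4. Ikzf1 itself was at 175.8 and 141.1 RPKM in wt, against 182.2 and 182.1 in dF1 and 237.7 in dF4, and a value over the whole transcript cannot check the mutation of 1 finger. In dF4 the low values were multiples of 1.67 RPM (reads scaled to library size) for 79.9% of 2177 values, within 0.1 read, which puts that library near 599000 reads. No such step was resolved in the other libraries, whose depth is unknown. Markers of other cells differed between the libraries. Transcripts of early B lineage genes were present in every library, beside those of other cells, and did not all differ the same way, with Pax5 at 5.4 to 9.4 RPKM in wt and dF1 and 61.5 in dF4, and Dntt at 152.5 to 238.9 and 14.8. The 12 early B lineage markers summed to between 545.1 and 773.4 RPKM in wt and dF1 and 1226 in dF4, and the 14 plasmacytoid dendritic cell markers summed to between 4733 and 6427 in wt and dF1 and 899.3 in dF4. Summed levels of the 10 neutrophil markers were 401.3 and 1081 in wt, against 209.5 and 841.8 in dF1 and 33180 in dF4. The 18 NK cell markers, which hold no killer lectin-like receptor, summed to 3680 and 2099 in wt, against 4091 and 3815 in dF1 and 1595 in dF4. All 18 had their lower wt value in replicate 2. In bulk RNA, fewer NK cells and less RNA per NK cell cannot be told apart, and the part of these markers in the receptor values below was not tested except where a ratio is given.

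Within each library the receptors kept much the same order. Klrd1, which encodes CD94, the common chain of the CD94/NKG2 receptors, had the highest level in all 5 libraries, at 257.3 and 128.4 RPKM in wt, against 215.9 and 160.6 in dF1 and 64.7 in dF4. Klre1 was the second highest in all 5. Klrb1c and Klrk1 took ranks 3 and 4 in each wt and dF1 library, in either order, and Klra7 rank 5. Klrg1 and Klra8 were among the lowest, at no more than 11.7 RPKM in any library. Klre1 stood at 47.8% to 75% of Klrd1 and never above it. Klrb1c and Klrk1 changed places between the wt replicates, and so did Klri2 and Klra4.

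**Figure D1:**
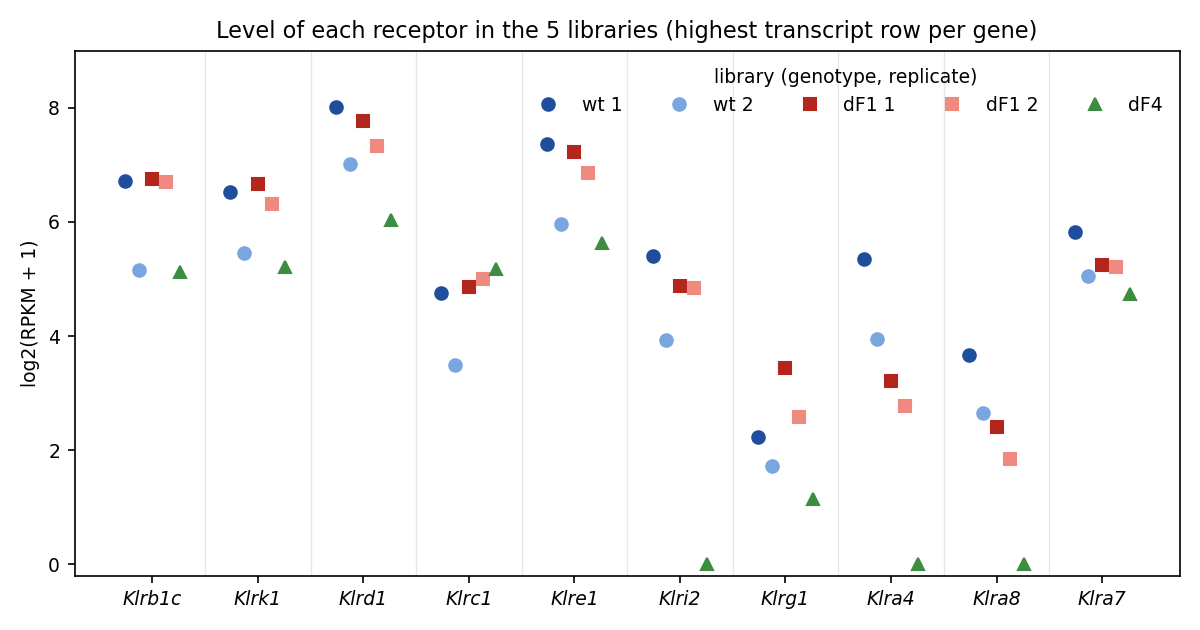
Level of each of the 10 receptors, as log2(RPKM + 1) of its highest transcript row, with 1 point per library: circles wt, squares dF1, triangle dF4. The wt replicates are far apart for most genes (Klrb1c at 104 and 34.6 RPKM), the dF1 points lie below both wt points for Klra4 and Klra8 and above both for Klrc1 and Klrg1, and Klri2, Klra4 and Klra8 are listed at 0 in dF4.

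The first comparison set dF1 against wt, 2 libraries against 2, and asked what the mutation of finger 1 does to each receptor. Differences are given on the log2(RPKM + 1) scale, which understates the change of low transcripts, and were tested with limma over the 12215 rows with a mean of at least 1 RPKM, all 14 receptor rows among them. No receptor row passed an adjusted p of 0.05, and neither did any other row (0% of 12215). Of the 14 rows, 8 were higher and 6 lower in dF1, with a median of 0.03 beside 0.01 over all rows tested. The split followed the gene families. All 5 rows of the Klra genes were lower in dF1 (median -0.95), under each scaling of the libraries that was tried. Of the 9 rows of the other genes, 8 were higher (median 0.37), and 1 of these, Klrd1, was lower after quantile normalization, while 5 were lower when each library was centred on its NK markers. At an unadjusted p under 0.05 there was 1 receptor row higher, beside 3.11% of all rows, and 3 lower, beside 4.05%. Both dF1 libraries lay above both wt libraries in 2 rows (16.8% of all rows did) and below both in 3 rows (17.9% of all rows did). With 2 libraries against 2, an exact permutation test of any single value cannot give a p below 0.333.

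Klra4 encodes Ly49D, an activating Ly49 receptor that signals through Tyrobp. Its row was at 39.8 and 14.4 RPKM in wt against 8.3 and 5.8 in dF1, so both dF1 libraries lay below both wt libraries. The means were 27.1 ± 18 in wt and 7.05 ± 1.77 in dF1 (SD, n = 2 each). The difference was -1.66 (SE 0.48), the largest of the 14 rows in size, with limma's unadjusted p = 0.0179 and adjusted p = 0.589. The wt libraries themselves were far apart. Without wt replicate 1 the difference was -0.95, and without wt replicate 2 it was -2.36.

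Klra8 encodes Ly49H, the activating receptor by which NK cells of C57BL/6 mice recognise cells infected with mouse cytomegalovirus. Its longer row (NM_001101620) was at 11.7 and 5.3 RPKM in wt against 4.3 and 2.6 in dF1. The other row (NM_010650) was at 7.5 and 3.8 in wt against 2.9 and 1.8 in dF1. In both rows the dF1 libraries were the lower ones and the groups did not overlap, although wt replicate 2 was only a little above dF1 replicate 1. The differences were -1.03 (SE 0.39) and -0.95 (SE 0.33), with limma's adjusted p = 0.686 and 0.662. Leaving out 1 library moved the first between -1.54 and -0.53.

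Klra7 encodes Ly49G, an inhibitory Ly49 receptor for MHC class I. Its main row (NM_001110323) was at 55.6 and 32.3 RPKM in wt against 36.7 and 36.2 in dF1, so the dF1 libraries fell between the wt libraries. The second row (NM_014194) was at 17.6 and 9.5 in wt against 10.3 and 6.9 in dF1 and also overlapped. The differences were -0.21 (SE 0.26) and -0.56 (SE 0.33), with limma's adjusted p = 0.887 and 0.787. The sign of the main row turned to 0.17 when wt replicate 1 was left out. Klra7 thus gave the smallest difference of the 3 Klra genes, and the activating Klra4 and Klra8 the larger ones, though the difference between these genes was not tested.

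Among the receptors outside the Klra cluster, Klrc1 and Klrg1 were the ones whose dF1 libraries both lay above both wt libraries. Klrc1 encodes NKG2A, the inhibitory partner of CD94, which binds Qa-1. It was at 26.1 and 10.3 RPKM in wt against 28 and 31 in dF1, where dF1 barely exceeded wt replicate 1. The difference was 0.80 (SE 0.41, limma's adjusted p = 0.755) and shrank to 0.17 without wt replicate 2. Klrg1, an inhibitory receptor for cadherins found on mature NK cells and effector T cells, was at 3.7 and 2.3 RPKM in wt against 9.8 and 5 in dF1. Its difference was 1.03 (SE 0.34), with limma's unadjusted p = 0.0292 and adjusted p = 0.655, and leaving out 1 library kept it between 0.61 and 1.46.

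Klrk1 encodes NKG2D, an activating receptor for stress-induced ligands that signals through Hcst. Its main row (NM_001083322) was at 91.3 and 42.8 RPKM in wt against 101 and 78.9 in dF1, and the groups overlapped. The difference was 0.51 (SE 0.37, limma's adjusted p = 0.827), and it was -0.03 without wt replicate 2. A second Klrk1 row (NM_033078) stayed at 0.9 to 1.3 RPKM in all libraries, right at the filter, with a difference of -0.14 (SE 0.16).

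Klrb1c encodes NK1.1, the activating receptor used to identify NK cells in C57BL/6 mice, which pairs with Fcer1g. Its main row (NM_001159904) was at 104 and 34.6 RPKM in wt against 106.2 and 102.8 in dF1. Of the 4 libraries, 3 thus lay together and wt replicate 2 stood apart. The difference of 0.79 (SE 0.50, limma's adjusted p = 0.808) was 0.01 without wt replicate 2. The other row (NM_008527) ranged from 1.3 to 4.1 RPKM with a difference of 0.03.

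Klrd1 had a difference of 0.03 (SE 0.36, limma's adjusted p = 0.99), with dF1 inside the range of wt. Klre1 is the shared chain of a pair of receptors, inhibitory when joined to Klri1 and activating when joined to Klri2. Klre1 was at 164.3 and 61.4 RPKM in wt against 148.7 and 114.7 in dF1, a difference of 0.37 (SE 0.47). Klri2 was at 41.2 and 14.2 in wt against 28.5 and 27.7 in dF1, a difference of 0.20 (SE 0.48). For each of these 3 genes the dF1 libraries lay between the wt libraries, and the sign depended on which library was left out.

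**Figure D2:**
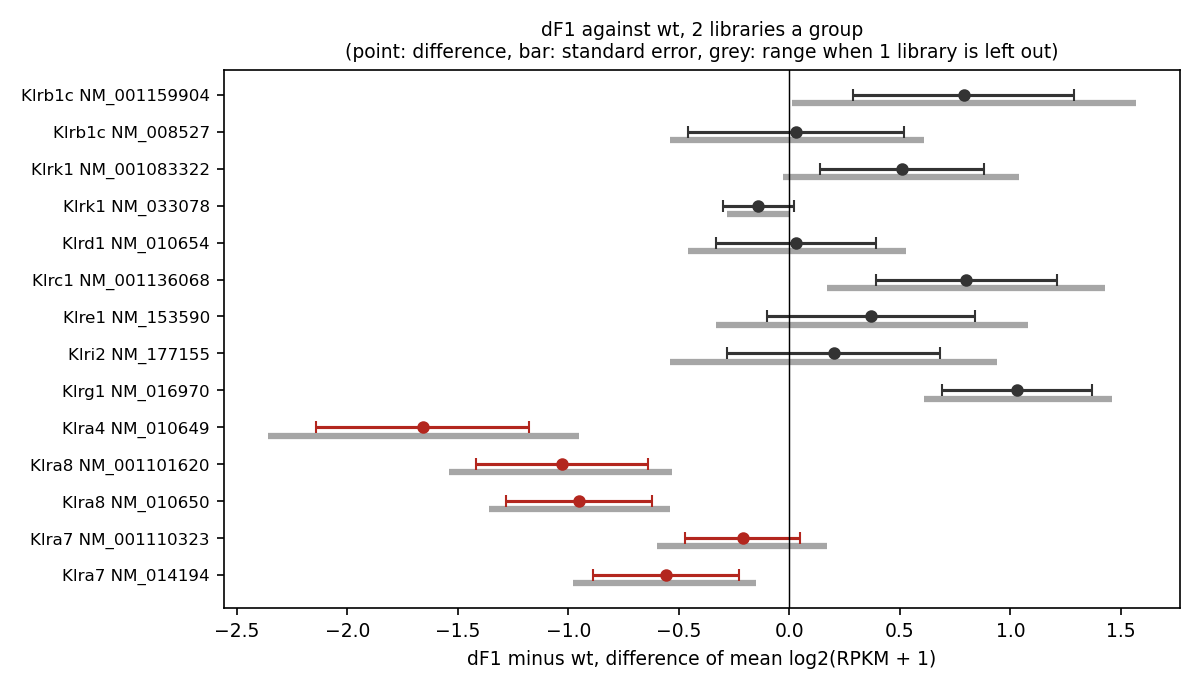
Difference of dF1 from wt on the log2(RPKM + 1) scale for each of the 14 rows: point and bar, difference with its standard error (2 libraries a group), and grey, the range over fits that leave out 1 library. Klra rows are red. Klra4 and both Klra8 rows stay below 0 throughout, Klrg1 and Klrc1 above 0, and Klrd1, Klre1 and Klri2 cross 0; all rows outside Klra other than the second Klrk1 row are at or above 0 here, but Klrd1 is below 0 after quantile normalization and 5 of them are below 0 after centring on NK markers.

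The wt replicates differed more than the groups did for most receptors. All 14 rows had their lower wt value in replicate 2, by a median of -1.04 on the log2 scale beside -0.08 over all rows tested. In dF1, 12 of the 14 were lower in replicate 2, with a median of -0.40 beside 0.05. The mean log2 level of the 18 NK markers was also lower in wt replicate 2, at 6.29 and 5.42 in wt. In dF1 this mean was nearly level, at 6.49 and 6.45. There 11 of the 18 markers were lower in replicate 2, with a median of -0.08. In dF4 the mean was 5.03. A ratio of 2 transcripts within a library does not change with a factor common to both. The ratios were chosen after the values had been seen and carry no test. Klra4 stood at 15.5% and 11.2% of Klrd1 in wt against 3.84% and 3.61% in dF1. Against Ncr1, which encodes the NK receptor NKp46, Klra4 was at 23.6% and 20.6% in wt against 4.5% and 2.87% in dF1. For both ratios the dF1 libraries were the lower pair. Klra8 was at 4.55% and 4.13% of Klrd1 in wt against 1.99% and 1.62% in dF1. Klra7, at 21.6% and 25.2% in wt against 17% and 22.5% in dF1, overlapped.

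The other receptors stood higher against Klrd1 in dF1, or overlapped. Klrd1 itself was lower in dF1 relative to the mean of the 18 NK markers, at 1.73 and 1.60 log2 units in wt against 1.27 and 0.89 in dF1, which raises every ratio to it, and relative to those markers 0 of the 14 receptor rows lay above both wt libraries. Klrk1 was at 35.5% and 33.3% of Klrd1 in wt against 46.8% and 49.1% in dF1, so the dF1 libraries were the higher pair although the level itself overlapped. Klrc1, the partner chain, was at 10.1% and 8.02% in wt against 13% and 19.3% in dF1, and Klrg1 at 1.44% and 1.79% in wt against 4.54% and 3.11% in dF1. Klre1 was at 63.9% and 47.8% in wt against 68.9% and 71.4% in dF1. Klrb1c was at 40.4% and 26.9% in wt against 49.2% and 64% in dF1. Klri2, at 16% and 11.1% in wt against 13.2% and 17.2% in dF1, overlapped. As shares of the summed level of all 10 genes, Klra4 made up 5.01% and 4.16% in wt against 1.21% and 1.03% in dF1.

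Set against the mean of the 18 NK markers, Klra4 was at -0.94 and -1.47 log2 units in wt against -3.27 and -3.68 in dF1. The main Klra7 row was at -0.46 and -0.36 in wt against -1.25 and -1.23 in dF1, which no longer overlap. On this scale all 5 Klra rows had both dF1 libraries below both wt libraries, and 3 of the 9 other rows did, 8 of 14 in all. That count must be read against all rows tested, of which 70.8% lay below in the same way, since the higher NK marker level of dF1 is subtracted from every row. Among the 18 NK markers themselves, 6 lay below and 3 above. Klra4 was the 1 receptor row called lower in this fit (-2.28, SE 0.52, limma's adjusted p = 0.00961), where 0.18% of all rows were called lower. Centring puts the same NK marker difference between the wt replicates into every row, so its p-values rest on a spread that the rows share.

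**Figure D3:**
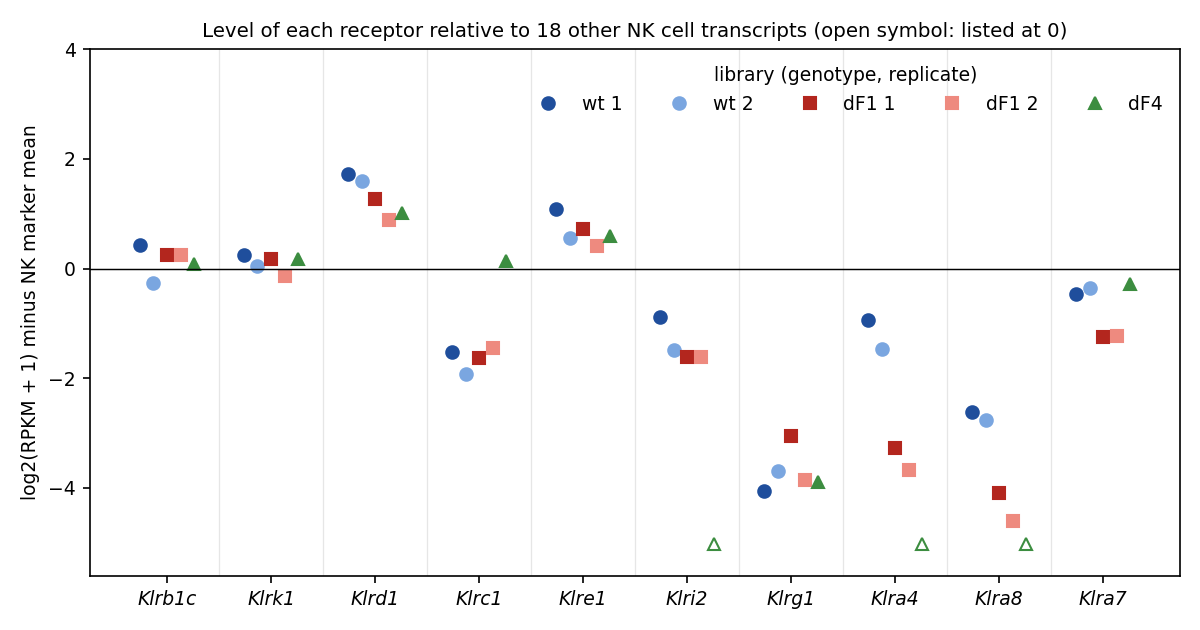
The same receptors as log2(RPKM + 1) minus the mean of 18 NK markers in that library, 1 point per library; open triangles are genes listed at 0 in dF4, whose position is set by the scale. The dF1 squares lie under both wt circles for Klra4 (-3.27 and -3.68 against -0.94 and -1.47), Klra8 and Klra7, but also for Klrd1 and Klri2, and 70.8% of all rows do the same on this scale.

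The rest of the family was read from a list of other killer lectin-like receptors, of which 22 of 26 matched symbols were tested, with 8 higher and 14 lower in dF1, a median of -0.35 and 0 called. By rows, 16 further Klra rows were tested. In dF1, 15 were lower and 1, Klra5, was not (0.09), with a median of -0.74, and 9 had both dF1 libraries below both wt libraries, as 17.9% of all rows did. The largest differences were those of Klra18, at 23.3 and 8.7 RPKM in wt against 4.1 and 3.1 in dF1 (-1.75), and Klra33, at 73.3 and 25.7 in wt against 17.5 and 10.1 in dF1 (-1.64). Klra12, at 69.9 and 38.2 in wt against 23.4 and 19.6 in dF1, gave -1.23 with limma's adjusted p = 0.486. Of the 18 further Klra symbols in the table, 9 (among them Klra12, Klra18 and Klra33) are not listed under that name on chromosome 6 of the reference, and how reads came to those rows is not given, so the counts above are of symbols and rows, not of separate genes. Klra17 (Ly49Q), known from plasmacytoid dendritic cells and not from NK cells, was at 51.2 and 41.7 RPKM in wt against 35.5 and 29.1 in dF1 (-0.51).

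All 8 tested Klr rows that are neither Klra genes nor among the 10 described were higher in dF1, with a median of 0.72 and a range of 0.25 to 1.83, and in 4 both dF1 libraries lay above both wt libraries, as 16.8% of all rows did. After centring on NK markers the median of these rows was 0.11, with 1 below and 1 above both wt libraries, where 70.8% of all rows lay below. Klrb1b, an inhibitory NKR-P1 receptor whose ligand is Clec2d, gave the largest difference, at 17 and 5 RPKM in wt against 37.6 and 34.3 in dF1 (1.83, SE 0.51, limma's adjusted p = 0.576). Klri1, the inhibitory partner of Klre1, was at 7.1 and 4.3 in wt against 12 and 9.8 in dF1 (0.85, SE 0.25). Klrb1f was at 48.7 and 18.5 in wt against 52.1 and 49.3 in dF1 (0.73).

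**Figure D4:**
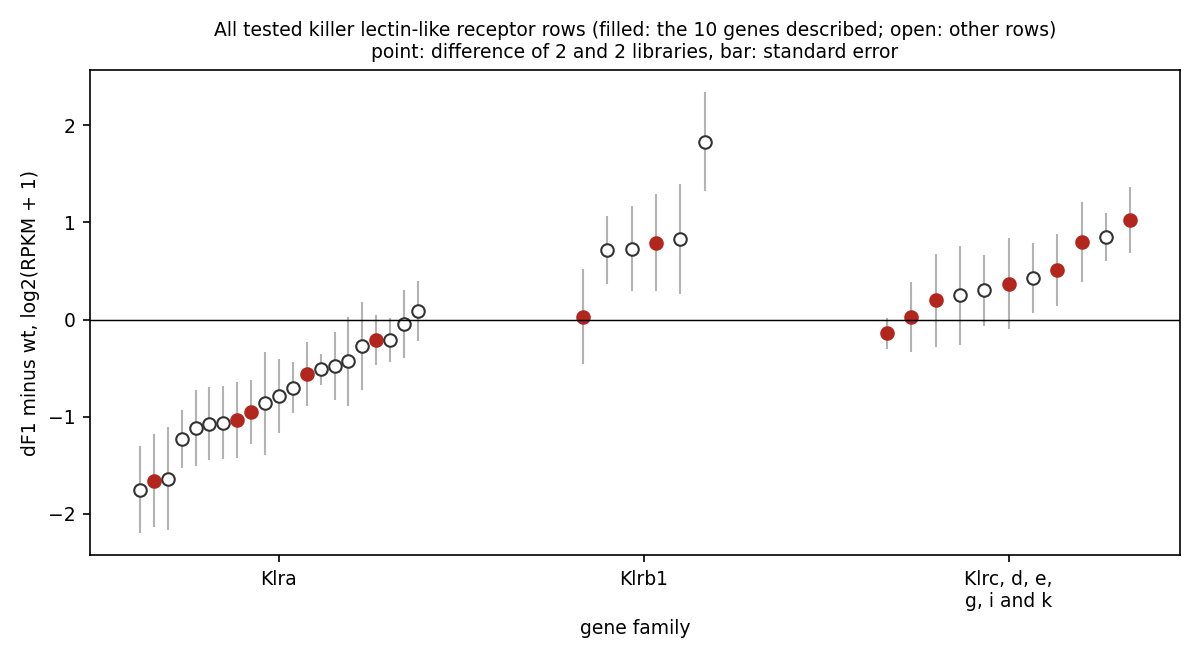
Difference of dF1 from wt on the log2(RPKM + 1) scale with its standard error for every tested killer lectin-like receptor row, sorted within Klra, Klrb1 and the remaining genes; filled points are rows of the 10 genes described. All Klra rows except Klra5 (0.09) lie below 0, down to -1.75 for Klra18, and the Klrb1 rows lie above 0, up to 1.83 for Klrb1b, without centring on NK markers.

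The partner and signalling genes of these receptors had mostly small differences. Of 20 tested genes for adaptors and signalling, 15 were higher and 5 lower in dF1, with a median of 0.12, 5 above and 0 below both wt libraries (16.8% and 17.9% of all rows) and 0 called. Tyrobp, the partner of Ly49D and Ly49H, was at 1702 and 1428 RPKM in wt against 1463 and 1449 in dF1, a difference of -0.10 (SE 0.22). Tyrobp is also expressed by myeloid and plasmacytoid dendritic cells. Hcst, the partner of NKG2D, was at 63.3 and 36.9 in wt against 61.4 and 58.7 in dF1, and Fcer1g, the partner of NK1.1, at 420.9 and 322.2 in wt against 434 and 466.5 in dF1. The largest difference in the list was that of Zap70, a kinase that binds phosphorylated receptor chains in T and NK cells, at 26.1 and 15.9 in wt against 31.2 and 37.1 in dF1 (0.71, limma's adjusted p = 0.667). Cd247, the CD3 zeta chain, gave 0.69, and the 14 T cell markers summed to 545.2 and 401.7 RPKM in wt against 917.5 and 736 in dF1. Most of the difference between these sums was in Cd4, at 146.3 and 154.1 RPKM in wt against 385.5 and 272.4 in dF1, and Cd8a, at 25.6 and 27.8 in wt against 131 and 94.6 in dF1, whereas Cd5 and Cd6 were lower in dF1.

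Of the ligands, 6 of 17 matched genes passed the filter, with 5 higher and 1 lower in dF1, a median of 0.15 and 0 called. The classical class I genes H2-K1 and H2-D1, ligands of Ly49 receptors, were at 537.1 to 928 RPKM in the wt and dF1 libraries. H2-T23, which encodes Qa-1, the ligand of CD94/NKG2A, was at 76.1 and 97.2 in wt against 80.7 and 78.5 in dF1. Clec2d was at 87.2 and 71.3 in wt against 88.1 and 96 in dF1. Cdh1, the E-cadherin bound by Klrg1, was at 52.7 and 40.5 in wt against 56.1 and 46.4 in dF1. The Raet1 and H60 ligands of NKG2D that the table lists were at 0.7 RPKM or less in every library. Clec2i, which passed the filter, was at 20.3 and 13 in wt against 20.3 and 16 in dF1. The remaining matched ligands, among them the cadherins Cdh2 and Cdh4, did not pass it.

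Of 13 tested NK cell transcription factors, 10 were higher and 3 lower in dF1, with a median of 0.25 and 0 called. Eomes, needed for mature NK cells, was at 58.9 and 26.7 RPKM in wt against 55 and 51.6 in dF1, and Tbx21 (T-bet) at 30.5 and 19.6 in wt against 36.8 and 33.8 in dF1. Tox was the factor with the largest difference, at 8.3 and 5.3 in wt against 4.1 and 2.9 in dF1 (-0.78, limma's adjusted p = 0.65). Among the NK markers, 17 of 18 were higher in dF1 (median 0.65, 9 above both wt libraries beside 16.8% of all rows, 0 called). Gzma, a granule protease, was at 356.2 and 195.5 in wt against 634.1 and 504.2 in dF1, and Ncr1 at 168.7 and 69.8 in wt against 184.6 and 202 in dF1. Klra4 and Klra8 thus had lower values in libraries whose mean NK marker level was above that of both wt libraries.

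The second comparison described the single dF4 library, with no test and no replicate. A row was counted as different when dF4 lay at least 1 log2 unit beyond the nearer wt library. By this rule 5 of the 14 receptor rows were lower and 0 higher, beside 11.3% lower and 11.4% higher over all rows. The median of dF4 minus wt was -1.26, beside 0.02 over all rows. Against the nearer dF1 library, 11 were lower and 0 higher, again beside 11.3% lower and 11.5% higher. The 2 counts share the dF4 library, and wt and dF1 values stand beside each other above. The count against wt rested on the lower wt library: without wt replicate 2 it was 12, and without wt replicate 1 it was 6, 5 lower and 1 higher.

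Klri2, Klra4 and Klra8 were listed at 0 in dF4. For Klri2 3 reads would have given 1.28 RPKM, well under the 14.2 and 41.2 of wt. For Klra4 3 reads correspond to 5.7 RPKM, under both wt values but about the level of dF1 (8.3 and 5.8). For Klra8 they correspond to 4.22 and 4.5 RPKM in its 2 rows, near or above wt replicate 2, so its absence was not a detectable difference at this depth. The fifth row lower by the rule was the second Klra7 row, at 1.6 RPKM, which is 1 read. The further Klra rows did not all go this way. Of the 16 tested, 8 were lower and 2 higher than wt by the rule, beside 11.3% and 11.4% of all rows. The higher ones were Klra22, at 12.2 RPKM (9 reads), and Klra5, at 7.2 (5 reads). Klra1, at 17 RPKM (17 reads), and Klra15, at 20.8 (13 reads), also lay above both wt libraries. Klra22 and Klra15 are among the 9 symbols not listed under that name on chromosome 6 of the reference.

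Of the 10 genes, Klrc1 was the 1 with a level in dF4 above both wt libraries. It was at 35 RPKM, beside 26.1 and 10.3 in wt against 28 and 31 in dF1. The value corresponds to 15.5 reads, which is not a whole number. Rounded to 16 reads, its 95% exact Poisson interval was 20.6 to 58.6 RPKM, counting error only. Klrc1 reached 54.1% of Klrd1 in dF4, against 8.02% to 19.3% in the other libraries. Its sequence shared with Klrc2 bears on this value, and Klrc2 was listed at 0 in dF4. Klrd1 was at 64.7 RPKM (34 reads, 45.1 to 91), below every other library. Klra7 held 25.7 RPKM (16 reads, 14.5 to 41.3), an interval that takes in wt replicate 2 at 32.3.

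The remaining receptors of dF4 were near wt replicate 2 or under it. Klrb1c was at 33.7 RPKM (53 reads, 25.1 to 43.9) beside 34.6 in wt replicate 2. Klrk1 was at 36 (68 reads, 27.9 to 45.5) beside 42.8, and Klre1 at 48.5 (27 reads, 32.3 to 71.3) beside 61.4. Klrg1 rested on 1 read. The NK marker sum of dF4 was also the lowest, at 1595 RPKM, and its 33180 RPKM of neutrophil markers stand beside at most 1081 elsewhere, and the part of either in these values was not tested. Relative to NK markers, Klrb1c, Klrk1 and Klrd1 in dF4 lay within or near the range of the other libraries in the plot of levels relative to NK transcripts. Tyrobp was at 407.2 RPKM in dF4, below the other 4 libraries, while Hcst was at 67.7 and Lat, an adaptor of T and NK cells, at 82.7 against 13.8 to 20.9 elsewhere.

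Genes outside the family whose pattern over the 5 libraries was most like each set were found by the root-mean-square distance between centred log2(RPKM + 1) profiles. The candidates were 8737 rows with a mean of at least 5 RPKM. All rows with a Klr symbol were left out beforehand, so other Klr rows may lie closer than the genes named here. Among these candidates, nearest to the mean of the 5 Klra rows were Cmklr1 (0.24 log2 units), Zfp943 (0.24), Pik3ip1 (0.25), Gpr174 (0.32) and Rab6b (0.34). Cmklr1, the chemerin receptor found on NK and dendritic cells, was at 16.8 and 13.7 RPKM in wt, against 10.6 and 7.3 in dF1 and 1.8 in dF4. Among the same candidates, nearest to the mean of the 9 other receptor rows were Mrfap1 (0.09), Rpl41 (0.14), Atp1b3 (0.17), Ccl4 (0.18) and Ugcg (0.20). Ccl4, a chemokine made by NK cells, was at 26.6 and 12.7 in wt, against 37.2 and 21.8 in dF1 and 7.2 in dF4. With 5 libraries, such likeness is a description of these values.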

How the data were processed

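The authors deposited RPKM values per RefSeq transcript, written to 1 decimal, per the file headers. TopHat, bedtools and mouse build mm9 are named in the submitters' processing notes. Their versions, the strand setting and how copies share reads are not stated there. The mRNA-enriched libraries were made with Illumina TruSeq, per the labels' protocols. Differences were computed on log2(RPKM + 1) with limma 3.58.1 under R 4.3.3 (eBayes with trend, two-sided, Benjamini-Hochberg over 12215 rows with a mean of at least 1 RPKM, threshold 0.05), without a replicate block. The fit was also run on simulated data. The changes planted there were larger than any receptor difference of the main fit, so the calling of smaller changes was not examined. The line naming no gene (1 of the table) was left out. The 10 members and the 11 gene lists were chosen with earlier results of these data known. All members are named. From each list, the highest members and those with the largest differences were eligible to be named. For genes with several rows, lists used the highest. Promoters and gene order are from RefSeq GRCm38.p6 and shared sequence from GENCODE on GRCm38. No coordinates were converted. The dF4 reads were estimated from the step of its low values and rounded to whole reads, which some values were not. Intervals are 95% exact Poisson on the rounded reads. Alternatives were other pseudocounts (0.1 and 5), filters, scalings, robust variances, all 5 libraries in the fit, a replicate block and leaving out each library.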

Additional observations from a re-analysis of the deposited data

How the results depend on the processing

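The count of rows called in dF1 against wt was 0 and stayed 0 without any 1 library, a range of 0 to 0, but it was 245 with no filter (93 higher, 152 lower), 25 with a filter at 5 RPKM, 33 with robust variances, 23 when centred on NK markers and 14 when centred on 15 of these 18, an alternative chosen after seeing the data. No receptor row was among those called except 1, Klra4, with each NK centring (-2.21 and adjusted p = 0.0423 with the shorter list). The receptor count was 0 to 0 over the fits that left out a library. Replicates share only a number (the deviations of same-numbered libraries correlated at 0.305 over 12215 rows, with 2 pairs), and the replicate block called 0 rows and 0 receptor rows. Differences of dF1 from wt that reversed were Klrd1 at -0.01 after quantile normalization and, when centred on the 18 NK markers and on the shorter list, Klrb1c NM_008527 at -0.59 and -0.53, Klrk1 at -0.11 and -0.05, Klrd1 at -0.58 and -0.52, Klre1 at -0.25 and -0.18 and Klri2 at -0.42 and -0.36. These centrings subtract the NK marker difference from every row and move the median of all rows to -0.61 and -0.55. Over fits without 1 library the ranges that changed sign were -0.54 to 0.61 for Klrb1c NM_008527, -0.03 to 1.04 for Klrk1, -0.46 to 0.53 for Klrd1, -0.33 to 1.08 for Klre1, -0.54 to 0.94 for Klri2 and -0.60 to 0.17 for the main Klra7 row. The rows past the dF4 rule numbered 2768 (1387 higher, 1381 lower), 1314 with a pseudocount of 5, 1497 with the filter at 5 RPKM, which tests fewer rows, and 3246 to 3393 without a wt library. Centring on NK markers moved that split to 3088 higher and 361 lower, or 2325 and 426 with the shorter list. Of the receptor rows, 5 passed, 3 of the 9 left by the filter at 5 RPKM, and 6 to 12 without a wt library. Centring on either NK list gave 1 higher and 5 lower. Where no construction is named, the cause was not tested. Depth limits dF4, where 3 reads correspond to 3.67 RPKM for Klrg1 and 5.75 for Klrd1.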

Other observations

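Killer lectin-like receptors are also carried by some innate lymphoid and T cells. Of 10 markers of group 2 innate lymphoid cells, 2 passed the filter, and the defining cytokines Il5 and Il13 were listed at 0 in every library, while the list summed to 36.2 and 38.8 RPKM in wt, against 32.2 and 26.5 in dF1 and 9.3 in dF4. Most of that sum in wt and dF1 was Il17rb, at 30.1 and 34.5 RPKM in wt, against 24.9 and 19.7 in dF1 and 0 in dF4. Of the 14 T cell markers, 11 were higher and 3 lower in dF1, with a median of 0.29, and 0 were called. The 7 erythroid markers tested summed to 6.2 and 31.2 RPKM in wt, against 3.7 and 19.8 in dF1 and 616.5 in dF4, and 7 of 7 passed the fold rule as higher in dF4, beside 11.4% of all rows. Of the 14 plasmacytoid dendritic cell markers, 10 were lower in dF1 (median -0.23) and 12 passed the fold rule as lower in dF4, beside 11.3% of all rows. The 10 neutrophil markers had a median of -0.76 in dF1, with dF1 and wt overlapping for all 10, and the 12 early B lineage markers a median of -0.10. The part of these cells in the receptor values was not tested.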
